A study of Mus musculus with 2 samples.

Results

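Mir132 and Mir212 are a pair of microRNA genes that lie side by side on mouse chromosome 11 and share the seed of their 3p arms. They were taken as the rows of the count tables whose GENCODE M21 symbol is Mir132 (ENSMUSG00000065537.2) or Mir212 (ENSMUSG00000065590.1), 2 of the 2202 microRNA genes tabulated. Both passed the minimum of 10 counts in each library and are thus among the 316 genes called detected below. The values come from 2 microRNA-seq libraries of whole heart tissue from female B6CASTF1/J mice, the first-generation hybrid of C57BL/6J and CAST/EiJ, aged 18 to 20 months and untreated as far as the labels say. The libraries form 1 group, are numbered as biological replicates 1 and 2, and have separate tissue records but 1 donor record, so SDs measure only the spread between these libraries, which may be technical, and p-values set their counts against counting noise. With 1 group there is no contrast between conditions, and the questions are how much of each hairpin the aged heart yielded and whether the libraries differed in it.

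A microRNA is cut from a hairpin, loaded into an Argonaute protein and guided to messenger RNAs mainly by its seed, bases 2 to 8 from its 5′ end. The miR-132/212 pair is known as a target of the transcription factor CREB in neurons. In the mouse heart it is known as a promoter of cardiomyocyte growth that represses Foxo3, a transcription factor that restrains hypertrophy and drives autophagy genes.

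The mature sequences, from RefSeq (GRCm38.p6, the assembly named mm10 in the deposited text), are shown because they decide which reads can be told apart; the capitals mark the seed.
mmu-miR-132-3p: uAACAGUCuacagccauggucg
mmu-miR-212-3p: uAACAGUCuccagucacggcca
mmu-miR-132-5p: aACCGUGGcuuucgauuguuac
mmu-miR-212-5p: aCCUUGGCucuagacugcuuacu
The 3p arms share the seed AACAGUC and no other of the 1679 mature microRNAs in the RefSeq table has it. The 3p arms are identical over their leading 9 bases and carry the same base at 17 of 22 positions. The 5 differences, with the miR-132-3p base before the position from the 5′ end and the miR-212-3p base after it, are A10C, C14U, U17C, U20C and G22A. The 5p arms share no seed with each other or with another mature microRNA in the table, and carry the same base at 9 of 22 positions. The nearest other sequence in the table to miR-132-3p beyond its partner was mmu-miR-7b-3p, at 7 single-base edits, against 5 edits to miR-212-3p.

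The hairpins follow, with both mature arms in capitals, since the deposited counts are per hairpin and do not separate the arms.
Mir132, chr11:75173682-75173747, plus strand: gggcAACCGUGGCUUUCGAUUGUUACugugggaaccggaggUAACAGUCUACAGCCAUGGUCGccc
Mir212, chr11:75173388-75173478, plus strand: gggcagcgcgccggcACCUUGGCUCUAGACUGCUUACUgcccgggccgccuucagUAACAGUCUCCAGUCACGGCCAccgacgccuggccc
The Mir132 hairpin is 66 nt long and 57.6% G and C, and the Mir212 hairpin is 91 nt long and 69.2% G and C. The median over the 316 detected hairpins was 51.2%, and 75 of them were above Mir132 and 10 above Mir212. RNAfold predicted 26 base pairs and a minimum free energy of -37.2 kcal/mol for Mir132, and 32 base pairs and -41.5 kcal/mol for Mir212. The longest stretch that the hairpins have in common is 10 nt, and neither shares 20 nt with the hairpin of any other annotated microRNA gene. Each of the 4 mature sequences occurs in 1 annotated hairpin. No other annotated microRNA hairpin thus offers another exact place for such a read, whereas 73 of the 316 detected genes do share such a stretch; the rest of the genome, and CAST/EiJ variants that could lower a count on mm10, were not compared.

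Both hairpins lie in intron 1 of 1700016P03Rik (chr11:75172560-75177633, plus strand), a non-coding transcript of 3 exons that GENCODE M21 tags as a host of small RNAs. Mir212 begins 828 bp after the start of the transcript. Mir132 begins 294 bp after the start of Mir212, with 203 bp between the hairpins, and ends 230 bp before exon 2. No gene is annotated on the opposite strand of either hairpin.

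**Figure D1:**
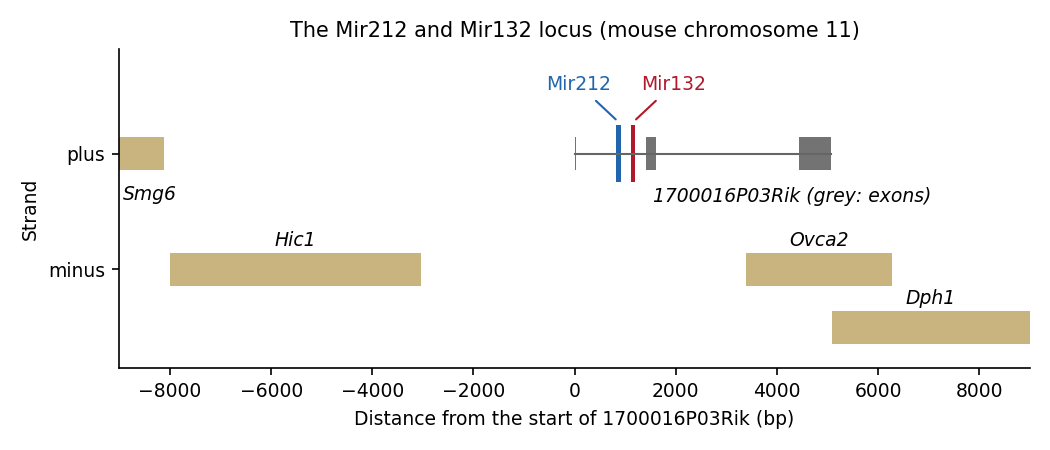
Map of the locus by distance in bp from the start of 1700016P03Rik, with genes of the plus strand above and of the minus strand below (Dph1 is set lower only because it overlaps Ovca2, and Smg6 and Dph1 run on past the edges). Mir212 and Mir132 both sit between exon 1 and exon 2 of the host transcript.

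Mir132 was the major gene of the pair and stood at nearly the same CPM in both libraries. It had 1360 sense counts in replicate 1 and 1480 in replicate 2. Scaled to 1000000 counts on the sense strand of all microRNA genes (CPM), that was 402 CPM in replicate 1 (Wilson 95% interval 381 to 424) and 403 CPM in replicate 2 (383 to 424), or 402 ± 0.476 CPM (SD, n = 2). The SD was 0.118% of the mean, well inside the counting error of either library. That closeness holds for scaling by library totals, under which the median log2 ratio of all detected genes was -0.18. With library sizes scaled by TMM, as below, the ratio of replicate 1 over replicate 2 was 1.09 for Mir132. Mir132 ranked 88 of 2202 genes in replicate 1 and 89 in replicate 2, with 227 of the 316 detected genes below it. Multimapping reads, 43.9% of all reads in replicate 1 and 43.2% in replicate 2, were assigned to no gene. Genes whose reads fit several loci may thus be undercounted, which would raise the ranks of Mir132 and Mir212. As the tissue is a bulk sample, fewer cells that make a microRNA and less of it per cell cannot be told apart.

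Mir212 was detected at a low level. It had 47 sense counts in replicate 1 and 61 in replicate 2. These were 13.9 CPM (Wilson 95% interval 10.4 to 18.5) in replicate 1 and 16.6 CPM (12.9 to 21.3) in replicate 2, so that the intervals overlap, and the mean was 15.2 ± 1.91 CPM (SD, n = 2). It ranked 226 in replicate 1 and 229 in replicate 2, with 85 of the 316 detected genes below it. A count of 0 would have allowed up to 0.887 CPM in replicate 1 and 0.816 CPM in replicate 2, so Mir212 was well above the floor set by 3 counts. Intervals and floors cover counting error only, since PCR reads without molecular identifiers are not independent molecules. No antisense read was counted for either gene in either library.

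**Figure D2:**
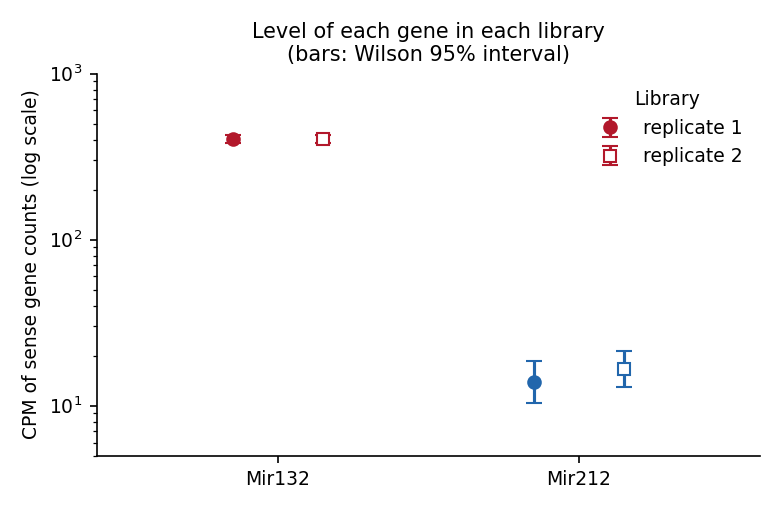
CPM of Mir132 and Mir212, scaled by library totals, on a log axis in replicate 1 (filled circles) and replicate 2 (open squares), with Wilson 95% intervals. Mir132 lies at 402 and 403 CPM and Mir212 at 13.9 and 16.6 CPM, so that the genes stand far apart in both libraries while the libraries overlap within each gene.

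The gap between the genes was many times larger than the gap between the libraries. Counts of Mir132 over those of Mir212 came to 28.9 in replicate 1 (exact 95% interval from 21.6 to 39.6) and 24.3 in replicate 2 (from 18.8 to 31.9), with a mean of 26.6 ± 3.30 (SD, n = 2). Mir132 thus gave 96.7% of the counts of the pair in replicate 1 (Clopper-Pearson 95% interval 95.6 to 97.5) and 96.0% in replicate 2 (94.9 to 97.0). An equal split was far outside both intervals (two-sided exact binomial test, −log10 p of 335 in replicate 1 and 353 in replicate 2), a comparison of counts within 1 library at a time. Small RNA reads span a mature microRNA whatever the length of the hairpin, so counts were not divided by length; per base of the annotated hairpin the ratio of Mir132 to Mir212 was 39.9 in replicate 1 and 33.5 in replicate 2. Since the arms are not separated, the ratio is one of hairpin counts and not of the 3p microRNAs with the shared seed. Whether reads of both genes were captured and amplified equally was not measured, so the ratio and its test describe counts and not molecules.

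The ratio of Mir132 to Mir212 was not distinguished between the libraries. The ratio in replicate 1 over that in replicate 2 was 1.19 (95% interval of the conditional odds ratio 0.796 to 1.80; two-sided Fisher's exact test, p = 0.379), a value that needs no scaling of library size. The 47 and 61 counts of Mir212 set the width of this interval. Together the genes held 416 CPM in replicate 1 and 419 CPM in replicate 2, or 0.0416% and 0.0419% of the sense gene counts.

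Set against all detected genes, the measured differences of both members between the libraries were small, with that of Mir212 poorly resolved. Each of the 316 genes underwent an exact binomial test, two-sided, with library sizes scaled by TMM, and Benjamini-Hochberg adjusted p fell under 0.05 for 191 of them, a background share of calls of 60.4%. Called higher in replicate 2 were 33.2% of the genes, neither member among them. This split depends on the scaling: 86 genes were higher in replicate 1 and 105 in replicate 2 with TMM, 70 and 128 with library totals, and 94 and 93 with DESeq2 size factors. Called higher in replicate 1 were 27.2% with TMM, and Mir132 was 1 of them, at a ratio of replicate 1 over replicate 2 of 1.09 (exact 95% interval 1.01 to 1.17; log2 ratio 0.12; exact binomial test, adjusted p = 0.0439). That call depends on the scaling and on which genes are tested. With library totals the log2 ratio of Mir132 was -0.0024 (exact binomial test, adjusted p = 0.995). With all 708 genes of 1 count or more tested it was 0.11 (exact binomial test, adjusted p = 0.149), and over its 6 alternatives it ran up to 0.18, with adjusted p between 0.00255 and 0.995. Mir212 was not called, at a ratio of 0.912 (exact 95% interval 0.610 to 1.36; log2 ratio -0.13; exact binomial test, adjusted p = 0.776), and its interval leaves room for a difference in either direction. The test sets these libraries against counting noise and says nothing of conditions.

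The size of the difference can be read beside genes counted about as deeply. Of 32 other detected genes whose counts summed to within 2-fold of those of Mir132, 22 were called (68.8%), and their median absolute log2 ratio was 0.39, against 0.12 for Mir132; 10 of the 32 had a smaller one than Mir132. Of 74 such genes around Mir212, 34 were called (45.9%), with a median absolute log2 ratio of 0.59, against 0.13 for Mir212, and 10 had a smaller one. Over all 316 genes, 60 had a smaller absolute log2 ratio than Mir132 and 61 a smaller one than Mir212.

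The neighbours of Mir132 on the chromosome gave few or no counts, with 1 exception. Of the 4 other microRNA genes that start within 1 Mb of Mir132, 2 had no count in either library (Gm47300 and Mir3971) and Mir6926 had 1 in each. Such genes were common, as 1494 of all 2202 tabulated genes had no count in either library. The exception was Mir22, which starts 290034 bp downstream on the same strand and is itself known from cardiac growth and senescence. Mir22 had 51384 CPM in replicate 1 and 14527 CPM in replicate 2, a ratio of 3.85 (exact 95% interval 3.82 to 3.89) on the TMM scale. The interval of the Mir132 ratio, 1.01 to 1.17, lies wholly below that of Mir22.

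**Figure D3:**
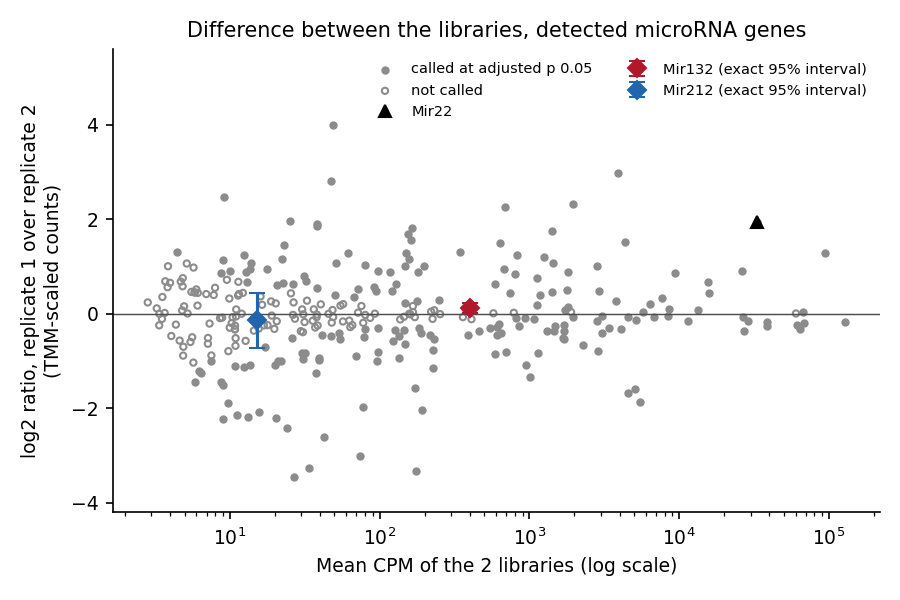
The log2 ratio of replicate 1 over replicate 2 (TMM-scaled counts) against the mean CPM (log axis) of the 316 detected genes, filled where called and open where not. Mir132 (red, 0.12) and Mir212 (blue, -0.13) lie near 0 with exact 95% intervals as bars, and Mir22 (triangle) lies at 1.95.

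In the order of levels, Mir132 stood between Mir872, at 411 ± 47.3 CPM, and Mir30b, at 400.5 ± 12.6 CPM (SD, n = 2 each). Of the 3 genes just above and the 3 just below it, Mir872, Mir31, Mir30b, Mir30c-1 and Mir351 lay within 1 SD of its mean, the larger SD of the 2 genes being used, and Mir467d, at 544 ± 113 CPM, did not. Mir212 stood between Mir299a, at 15.6 ± 3.29 CPM, and Mir128-2, at 14.5 ± 3.36 CPM (SD, n = 2 each), and all 6 genes around it, which also include Mir362, Mir20b, Mir702 and Mir103-2, lay within 1 SD. Neither rank is thus resolved among its neighbours. The nearest genes to Mir132 in the plane of log2 CPM in replicate 1 and in replicate 2 were Mir30b (Euclidean distance 0.04), Mir30c-1 (0.06) and Mir574 (0.15), and to Mir212 they were Mir299a (0.13), Mir128-2 (0.20) and Mir383 (0.22). With 2 libraries, this likeness is one of level and of 1 difference. Mir30c-1 and Mir128-2 share 20 nt or more with another locus, so their counts are uncertain.

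An unequal yield of neighbouring hairpins was common in these libraries. Among 67 pairs of detected microRNA genes that follow each other on 1 strand within 10 kb, the higher gene of the other 66 pairs had a median of 7.66 times the mean CPM of the lower (range 1.02 to 645), and 11 of them had a larger ratio than the 26.4 of Mir132 over Mir212 on this scale of mean CPM. Of these pairs, 28 hold a gene that shares a stretch with another locus. Among the 38 other pairs that hold none, 2 had a larger ratio than Mir132 over Mir212, which were Mir322 over Mir503 (66.9) and Mir30d over Mir30b (39.2). By point value, the log2 library ratios of Mir132 and Mir212 lay 0.25 apart. The median over the other 66 pairs was 0.53 (range 0.02 to 2.76), and 17 of them lay closer together. As a ratio the difference of Mir132 and Mir212 was 1.19, with the interval of 0.796 to 1.80 given above. The low counts of Mir212 make that interval wide, so whether these genes moved more alike than other pairs is not resolved.

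Of 64 pairs with both genes in the RefSeq table, 21 share a seed, a class chosen after the values were seen. The other 20 of those pairs had a median level ratio of 11.7 (range 1.61 to 645), and 5 were above Mir132 over Mir212, each of them uncertain through a shared stretch. Mir30d over Mir30b, both of the miR-30 family, is not among the 64 pairs. Mir221 and Mir222, known from the vessel wall, share a seed and no long stretch with another locus. Mir221 stood at 18.7 times Mir222 and their log2 library ratios lay 0.08 apart. Mir195a and Mir497, a cell cycle pair on the same chromosome as Mir132, had a level ratio of 6.58 and lay 2.35 apart. Among the 38 other pairs that hold no gene with a shared stretch, 0.08 and 2.35 were the smallest and largest difference, around a median of 0.58.

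**Figure D4:**
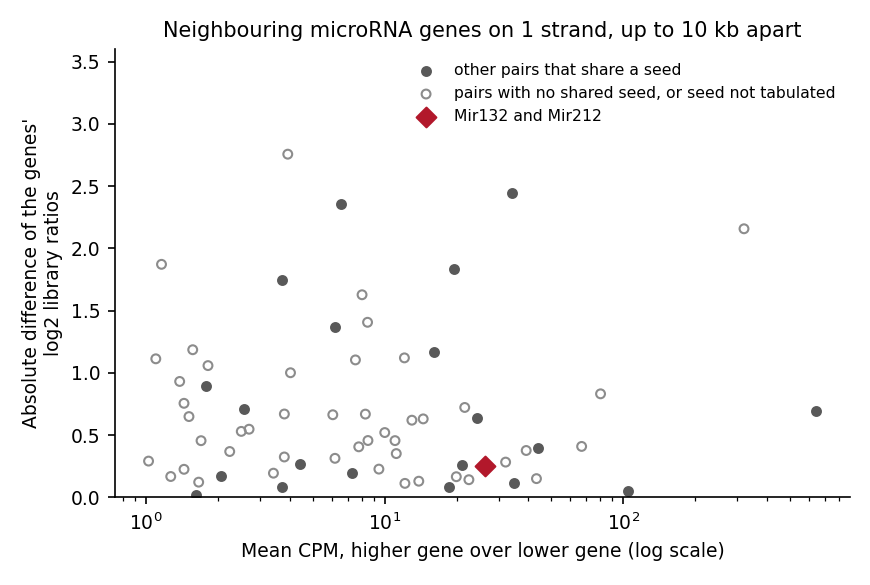
For 67 pairs of neighbouring detected microRNA genes, the mean CPM of the higher over the lower gene (log axis) against the absolute difference of their log2 library ratios. Mir132 and Mir212 (red diamond) lie at 26.4 and 0.25, and the 20 other pairs that share a seed (filled) reach from 1.61 to 645 in level ratio.

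Among 35 microRNA genes known from cardiac growth and remodelling in either direction, Mir132 ranked 18 and Mir212 ranked 25 by mean CPM. The highest were Mir378a, known from cardiac metabolism (127632 ± 18692 CPM), Mir23a, a pro-hypertrophic microRNA in mice (60975 ± 10926 CPM), Mir22 (32956 ± 26062 CPM) and Mir26b (28864 ± 3735 CPM), each with n = 2. Next above Mir132 was Mir208a, at 1418 ± 241 CPM, and next below it was Mir222, at 122 ± 41.5 CPM. Of all 2202 tabulated genes 316 were detected, and 28 of the 35 listed genes were. The binomial test called 15 higher in replicate 1, Mir132 among them, and 7 higher in replicate 2, and did not call 6, Mir212 among them; the shares over all detected genes, given above, are 27.2% and 33.2%. The median log2 ratio of the 28 was 0.19, against -0.05 over all 316 detected genes. Of the 35 genes, 18 have 20 nt or more in common with another locus, as have 1087 of all 2202 tabulated genes. Among the 18 are Mir378a, Mir23a and the miR-1, miR-133 and miR-9 loci. The place of those genes in the order is uncertain, and so are the ranks of Mir132 and Mir212 among the 35.

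**Figure D5:**
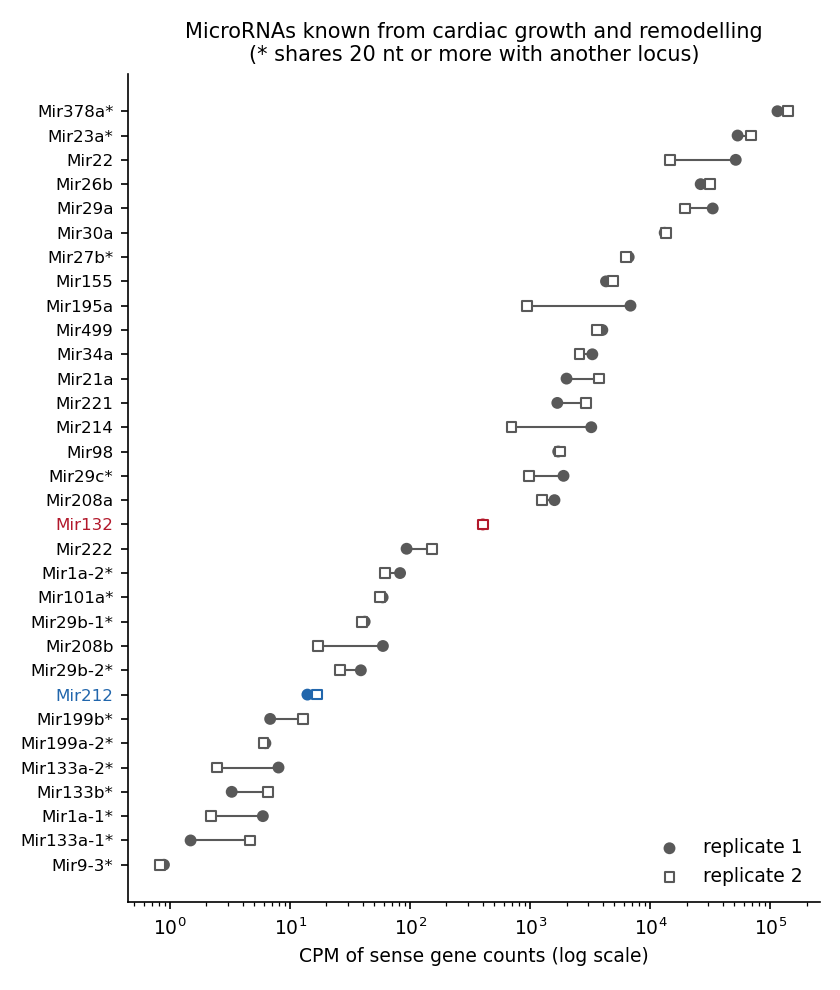
CPM (log axis) in replicate 1 (filled) and replicate 2 (open) of the 32 genes of the remodelling list with a count, ordered by mean; asterisks mark genes that share 20 nt or more with another locus. The symbols of Mir132 (red) coincide near 402 CPM, those of Mir212 (blue) lie at 13.9 and 16.6 CPM, and those of Mir22, Mir195a and Mir214 lie far apart.

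The heart label was met by the heart microRNAs of the myosin genes. Mir499 had 3977 CPM in replicate 1 and 3567 CPM in replicate 2, and Mir208a had 1588 and 1247 CPM. Mir208b, of the slow and fetal isoform, had 59.1 and 17.1 CPM. The miR-1 and miR-133 loci of the remodelling list share a stretch with another locus, so their counts are uncertain. Mir1a-2 had a mean of 72.0 CPM, and Mir1a-1, Mir133a-1, Mir133a-2 and Mir133b had means from 3.05 to 5.21 CPM. Neuronal markers, set here because miR-132 is known from neurons, summed to 279.9 and 276.9 CPM in replicates 1 and 2, most of it Mir128-1. All 3 Mir124a loci, known from neurons, had 0 counts, as had 5 of the 13 neuronal genes in all, but 12 of the 13 share a stretch with another locus. Since multimapping reads were assigned to no gene, these 0 counts cannot show whether neuronal microRNAs were present. Mir137, the only gene of the neuronal list that shares no such stretch, had 94 counts in each library (27.8 CPM in replicate 1 and 25.6 CPM in replicate 2). By library totals, marker sums of some other cell types differed more between the libraries than the 0.0416% and 0.0419% of Mir132 and Mir212 together. Endothelial genes (2, led by Mir126a) took 12.9% of the counts in replicate 1 and 5.77% in replicate 2, and leukocyte genes (5) 0.864% and 1.64%. Erythroid genes (3) took 0.418% and 0.194%, and smooth muscle and pericyte genes (2) 3.56% and 5.08%. The fibroblast and stroma genes (7) took 0.602% in each, a sum of members that moved in opposite directions: Mir214 (log2 ratio 2.33) and Mir152 (1.81) were called higher in replicate 1, and Mir10b (-1.33) and Mir21a (-0.78) in replicate 2. The part of any of these cells in the level of Mir132 or Mir212 was not tested.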

How the data were processed

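The authors deposited unnormalised read counts by microRNA gene, with separate columns for either strand, sense and antisense; the files lack headers, and the columns were told apart by their values. Assembly mm10 and annotation GENCODE M21 are stated in the text deposited beside the counts, while an aligner or counter is not given in the sources used here. The 4 rows that are no genes (unmapped, multimapping, featureless, ambiguous) held 63.9% of the reads of replicate 1 and 65.2% of replicate 2 and were left out. Sense totals were 3383676 and 3676084 counts. CPM used these totals.

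Detected means 10 counts or more in each library. Library sizes came from TMM (edgeR 4.0.16), with DESeq2 1.42.0 size factors as an alternative. Exact tests used scipy 1.17.1 and folding RNAfold 2.7.2. The binomial test was tested on simulated counts that held counting noise and set changes only. That simulation does not cover further spread between libraries. The alternatives were strand column, denominators, scaling, minimum counts, thinning, length, distance and each library left out. Named genes were the members, 3 neighbours in level on each side, the 3 nearest in both libraries, genes within 1 Mb and fixed lists; pairs sharing a seed and examples of cluster pairs were added after values were seen. The members and lists were chosen with earlier results of these data known.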

Additional observations from a re-analysis of the deposited data

How the results depend on the processing

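Mir132 kept 96.0% to 96.7% of the pair's counts with either library left out, and 97.3% per base of hairpin. The mean CPM of Mir132 and Mir212, 402 and 15.2, became 539 and 20.4 with reads on either strand, 143 and 5.40 per 1000000 of all reads, 1156 and 43.8 without the 10 highest genes, and 566 and 21.5 without genes that share a stretch; these shifts follow from the denominators, as the counts of both genes were the same in each. With a library left out, Mir132 ran from 401.9 to 402.6 CPM and Mir212 from 13.9 to 16.6. The log2 ratio of Mir132 turned to -0.0024 with library totals (exact binomial test, adjusted p = 0.995) and lost its call with all genes of 1 count or more (0.11; exact binomial test, adjusted p = 0.149). Its call stayed under the other 4 alternatives, with DESeq2 size factors at 0.18 (exact binomial test, adjusted p = 0.00255). The log2 ratio of Mir212 stayed between -0.26 and -0.08 and was not called under any of the 5 alternatives that gave it a value. At a minimum of 50 counts Mir212 was not tested. The number of called genes ran from 153 of 214 tested (71.5%, minimum of 50 counts) to 201 of 708 (28.4%, 1 count or more), so the background share of calls moved with the genes tested. Cluster pairs numbered 39 without uncertain genes. The median log2 ratio of all detected genes was -0.05 with TMM, -0.18 with library totals and 0 with DESeq2 size factors. A ratio between libraries has no value with 1 library left out. No paired analysis was possible because there is 1 group. At 47 and 61 counts, depth limits what can be said of Mir212.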
